A study of Homo sapiens with 6 samples.

Results

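Kinesins are motor proteins that burn ATP to move along microtubules or to take them apart. They are grouped here by what they do: 13 mitotic kinesins that build and move the spindle or split the cell, 17 transport kinesins that carry vesicles, organelles and RNA or govern microtubule growth along those routes, and 7 others that work in cilia, in Hedgehog signaling or at microtubule ends, or are little studied. The members were all rows whose symbol is KIF followed by a number with an optional letter and digit, or KIFC1 to KIFC3, which gave 37 of the 21857 genes in the deposited tables. Antisense rows and the kinesin-binding protein KIFBP were not members. Of the 37, 31 passed the filter on low counts and were tested, namely 12 mitotic, 14 transport and 5 other kinesins.

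RNA sequencing was done on MV4;11, an established human acute myeloid leukemia line with FLT3-ITD and MLL-AF4, which all libraries share. 3 control libraries were compared with 3 libraries of cells given 10 µg/ml flavokawain A (FKA), a chalcone of the kava plant, for 48 h. The labels name no vehicle for the controls, and each of the 3 labelled batches holds 1 control and 1 FKA library. Nothing in the labels says that the replicates were separate cultures, so p-values measure the spread between these libraries, which may be technical.

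A dividing cell needs the mitotic motors only for a short time, and their transcripts are known to be made mainly shortly before mitosis and to be shut off in resting cells. The transport motors work throughout the life of a cell, and several of them are known best from neurons, where cargo travels far along axons. Kinesin-1 and kinesin-2 motors act together with light chains or adaptors that select the cargo, while cytoplasmic dynein carries cargo the opposite way.

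Total counts ran from 29971171 to 36362421 per library. The 7 leukemia and myeloid markers with a row, PTPRC (CD45) the most abundant, summed to between 1044 and 1451.9 CPM in every library. Markers of mesenchymal cells, 8 genes led by fibronectin (FN1), summed to 10.7, 8.94 and 0.773 CPM in control replicates 1 to 3 and to 1.12, 52.7 and 48.8 CPM in FKA replicates 1 to 3, so FKA replicates 2 and 3 stood apart. The summed T and NK cell markers were 21.5 to 24.3 CPM in controls and 9.38 to 9.72 CPM with FKA, nearly all of it NKG7, and the B cell markers 20.6 to 27.3 and 7.30 to 9.67 CPM, nearly all of it PAX5. Epithelial markers lay between 12.9 and 21.8 CPM in all libraries. Control replicate 1 stood apart for the motors of division: it was the lowest control for all 12 tested mitotic kinesins and lay at less than 0.5 times the mean of control replicates 2 and 3 for 10 of them. The ratio of control replicate 1 to that mean had a median of 0.383 over the mitotic kinesins (range 0.197 to 0.860), 0.831 over the transport kinesins and 1.00 over all tested genes.

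After FKA the mitotic kinesins fell together, whereas the transport members went both ways. All 12 tested mitotic kinesins fell, by 2.49-fold to 50.1-fold. Of the 14 tested transport kinesins, 6 rose, 2 fell and 6 did not pass the test. Of the 5 others, 3 fell and 2 did not pass. Calls were made at an adjusted p under 0.05 in edgeR's quasi-likelihood test with Benjamini-Hochberg adjustment over all 13531 tested genes, and 59.8% of those genes were called, 29.3% higher and 30.5% lower. All 12 mitotic members were lower by at least 2-fold, against 13.7% of all tested genes. The transport list, with 8 of 14 called, was near that background. Of its members, KIFC2, KIF3C and KIF13B rose at least 2-fold, as did KIF13A, which passed the filter only through the FKA group where it is high (11.9% of all tested genes rose by that much). Without KIF13A, 5 of 13 transport members were called higher and the transport median was 0.33. KIF1A, which was not called, also passed the filter only through the FKA group and remains in all transport medians here. The median log2 fold change was -4.17 for the mitotic, 0.54 for the transport and -0.57 for the other kinesins, beside 0.01 over all tested genes. The difference between the mitotic and transport medians was -4.71 on the log2 scale. Within batches 1, 2 and 3 the mitotic median was -2.88, -4.00 and -5.17, and the transport median 0.40, 0.37 and 0.24. Without control replicate 1 the mitotic count remained 12 and the median was -4.57. Without FKA replicates 2 and 3, 11 of 13 tested mitotic members were called lower, with a median of -4.48, and the exceptions were KIF18A (log2 fold change -1.45, edgeR adjusted p = 0.0671) and KIF4B, which did not pass the main filter. In the same setting 4 transport members were called higher and 1 lower, and 2 other members lower.

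**Figure D1:**
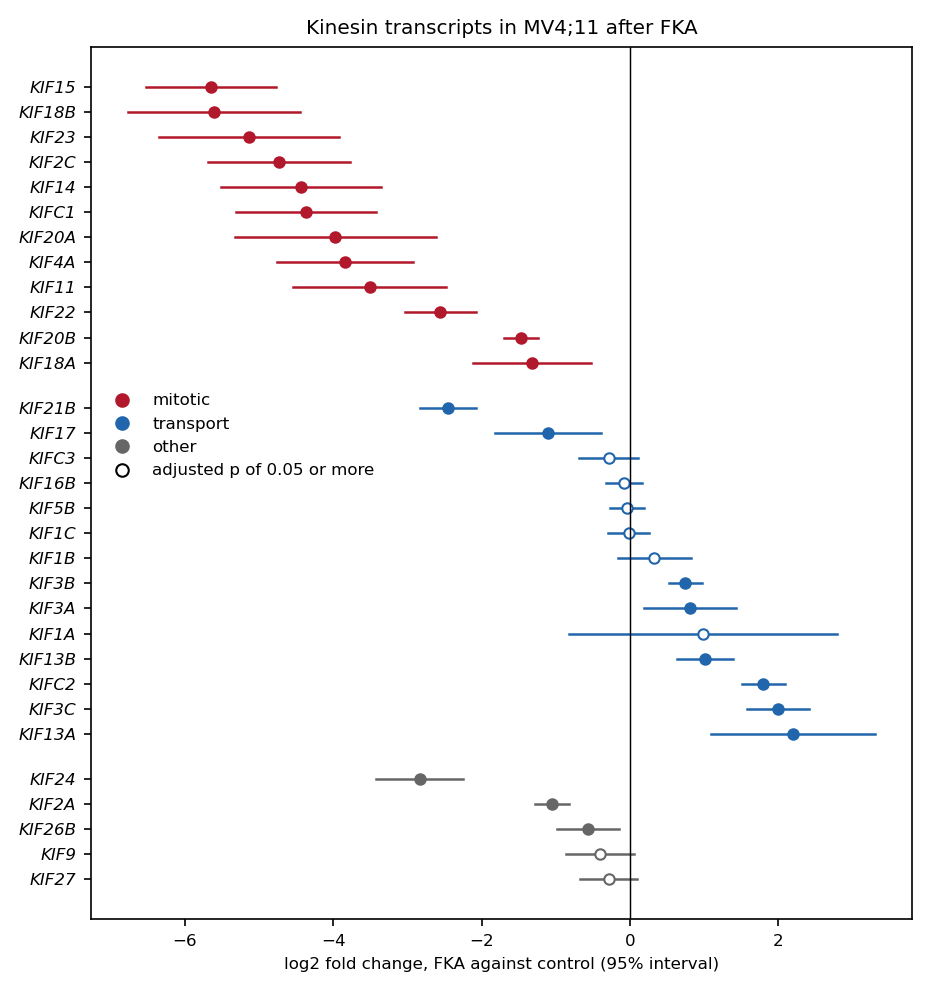
Log2 fold change of FKA against control (x axis) for the 31 tested kinesins, with 95% intervals as lines, filled points for an edgeR adjusted p under 0.05 and colors for the 3 roles. All 12 mitotic members lie left of 0, from -5.65 to -1.32, while the transport members spread from -2.45 to 2.19.

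KIF15, which helps to hold the spindle poles apart, and KIF18B, which shortens the astral microtubules, fell most. KIF15 stood at 31.5, 69.2 and 75.3 CPM (counts scaled for depth with TMM library sizes) in control replicates 1 to 3 and at 1.24, 1.5003 and 0.777 CPM in FKA replicates 1 to 3. That is a log2 fold change of -5.65 (SE 0.390, edgeR adjusted p = 9.85e-06), and the lowest control was far above every FKA library. KIF18B had 14.1, 35.1 and 39.1 CPM in the controls and 0.404, 1.06 and 0.345 CPM with FKA (-5.61, SE 0.510, edgeR adjusted p = 3.62e-05). Here too the groups did not overlap, and control replicate 1 was the low one.

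The motors of the spindle midzone and of cytokinesis followed. KIF23, which forms centralspindlin together with RACGAP1, had 20.9, 66.1 and 71.7 CPM in controls and 1.34, 2.38 and 0.834 CPM with FKA (log2 fold change -5.13, SE 0.535). KIF14, which recruits citron kinase to the midbody, went from 33.1, 116 and 113 CPM to 3.94, 5.28 and 2.96 CPM (-4.43, SE 0.477). KIF20A, which brings the chromosomal passenger complex to the midzone, had 6.05, 29.4 and 32.2 CPM in controls and 1.40, 1.97 and 0.949 CPM with FKA (-3.97, SE 0.598). For these 3 genes every FKA library was below every control, and the gap was narrowest for KIF20A, whose batch differences were -2.11, -3.90 and -5.08. KIF4A, the chromosome-bound motor that works with PRC1 to limit the midzone, fell from 13.96, 39.6 and 39.0 CPM to 2.17, 2.66 and 1.64 CPM (-3.84, SE 0.406). KIF20B, a relative of KIF20A needed late in cytokinesis, fell least of this group, from 168, 188 and 203 CPM to 70.8, 61.9 and 68.7 CPM (-1.47, SE 0.101). The edgeR adjusted p of these 5 genes was at most 0.000502, the value of KIF20A.

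Motors that shape the bipolar spindle and move chromosomes fell as well. KIF11, the tetrameric motor that pushes the poles apart and the target of several antimitotic inhibitors, stood at 61.0, 189 and 228 CPM in controls and at 13.8, 18.4 and 9.84 CPM with FKA (log2 fold change -3.51, SE 0.456, edgeR adjusted p = 0.000228). KIFC1, a minus-end motor that gathers extra centrosomes, went from 23.3, 57.2 and 63.6 CPM to 1.99, 3.34 and 1.67 CPM (-4.37, SE 0.417). KIF2C, also called MCAK, takes microtubule ends apart at kinetochores, and went from 39.1, 103 and 98.8 CPM to 3.04, 4.19 and 1.87 CPM (-4.73, SE 0.424). In all 3 genes the groups were apart, with control replicate 1 nearest to the FKA libraries. KIF22, which pushes chromosome arms away from the poles, had 46.3, 69.3 and 78.8 CPM in controls and 9.97, 9.69 and 13.3 CPM with FKA (-2.56, SE 0.213). KIF18A, which damps the swings of aligned chromosomes, had 7.34, 20.2 and 17.7 CPM against 5.56, 7.78 and 4.83 CPM (-1.32, SE 0.351, edgeR adjusted p = 0.0102). It was the only one of the 12 whose groups overlapped, since control replicate 1 lay under FKA replicate 2, and its batch differences were -0.40, -1.38 and -1.87. For the other 11 mitotic members every FKA library was below every control, which held for 33.6% of all tested genes.

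Close relatives had different fold changes. In the kinesin-8 family KIF18B stood at -5.61 and KIF18A at -1.32, and in the kinesin-6 family KIF23 stood at -5.13 and KIF20B at -1.47, and the 95% intervals within each pair did not overlap. The interval was -6.77 to -4.45 for KIF18B and -2.11 to -0.52 for KIF18A. For KIF23 it was -6.34 to -3.92 and for KIF20B -1.70 to -1.25. No direct test of one gene's fold change against another's was made. KIF20B also differed least between the controls, with control replicate 1 at 0.860 times the mean of the other two, against 0.303 for KIF23 and 0.197 for KIF20A. Across the 12 mitotic members the log2 of this control ratio and the log2 fold change without control replicate 1 had a Pearson r of 0.51 and a Spearman rho of 0.27, over genes that share the same libraries. Both values are taken against control replicates 2 and 3. That shared reference by itself favors a positive correlation, so no link is read from these values. FKA replicate 2 was the highest FKA library for 10 of the 12 and FKA replicate 3 the lowest for 10. In bulk RNA, fewer cells in division and less transcript per dividing cell cannot be told apart.

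**Figure D2:**
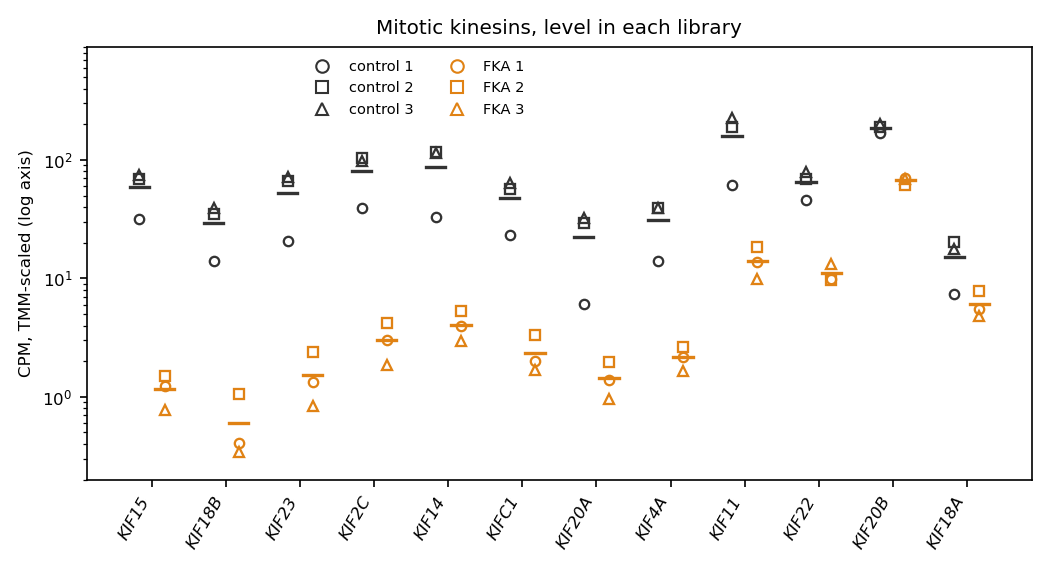
Level of the 12 tested mitotic kinesins in each library, in TMM-scaled CPM on a log axis, with controls in black, FKA in orange, a marker shape per replicate and bars for the group means. Control replicate 1 (circles) is the lowest control for every gene, and only for KIF18A does it reach into the range of the FKA libraries.

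Since the mitotic members moved together, the letters before their transcript starts were compared. Promoters of late cell cycle genes are known for a short element, the cell cycle genes homology region (CHR), bound by the MuvB complexes that repress in resting cells and activate in dividing ones, and for CCAAT boxes bound by NF-Y. RefSeq promoter windows on GRCh38.p14, 250 bases before to 50 after each start, were matched to all 12 tested mitotic, 10 of 14 transport and 3 of 5 other kinesins, and KIF21B, KIFC3, KIF13B, KIFC2, KIF26B and KIF27 were not matched. The CHR-like letters TTTGAA or TTCGAA on either strand were found for 10 of the 12 mitotic genes, 1 of the 10 transport genes (KIF5B) and 1 of the 3 others (KIF24), and in 16.4% of all 35116 promoter windows. CCAAT on either strand was found for 10 of 12 mitotic, 3 of 10 transport and 1 of 3 other genes, and in 34.6% of all windows. CHR-like and CCAAT letters stood together for 9 of the 12 mitotic genes, for KIF5B and for KIF24, and in 6.38% of all windows. A gene counts as matched if any of its windows matched, whereas the shares over all promoters are of single windows. Counted by window, CHR-like letters, CCAAT and both were in 11, 10 and 9 of 13 mitotic windows. The windows of KIF22 overlap and share 1 CHR-like site, which is counted in each of them. In the 14 transport windows they were in 1, 4 and 1. No share per gene over all promoters was computed. The windows of KIF2C, which fell 26.6-fold, held neither, and that of KIF20A held CCAAT only. A further motif set, with TTCCCGC as one E2F-like form, with TTGGCGC as another and with TTCGCGC as the last, on either strand, was found in 3 of 13 mitotic and 3 of 14 transport windows and in 11.0% of all windows. TTTGAA and its reverse complement TTCAAA count as the same motif, and CHR-like and E2F-like matches may share bases. A match describes the letters of a window, and no binding was measured.

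The 125 bases from 110 before to 15 from the transcript start show the arrangement, 5′ to 3′ on the strand of the gene, with CHR-like and CCAAT letters in capitals. KIF15, KIF18B, KIF23, KIFC1, KIF11 and KIF4A are shown as mitotic genes with a CHR-like match, KIF20A as one without, KIF24 as a gene outside the mitotic list with the same arrangement, and KIF3C as a transport gene that rose. On GRCh38.p14 the stretches lie at chr3:44761684-44761808 (KIF15, plus strand), chr17:44947759-44947883 (KIF18B, minus strand), chr15:69414239-69414363 (KIF23, plus strand), chr6:33391713-33391837 (KIFC1, plus strand), chr10:92593020-92593144 (KIF11, plus strand), chrX:70289994-70290118 (KIF4A, plus strand), chr5:138179002-138179126 (KIF20A, plus strand), chr9:34329254-34329378 (KIF24, minus strand) and chr2:25982483-25982607 (KIF3C, minus strand).
KIF15: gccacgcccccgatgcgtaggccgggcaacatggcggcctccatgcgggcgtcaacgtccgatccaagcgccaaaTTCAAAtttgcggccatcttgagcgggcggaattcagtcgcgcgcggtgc
KIF18B: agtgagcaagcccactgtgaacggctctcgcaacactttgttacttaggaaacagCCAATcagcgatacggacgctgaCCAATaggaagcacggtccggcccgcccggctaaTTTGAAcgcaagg
KIF23: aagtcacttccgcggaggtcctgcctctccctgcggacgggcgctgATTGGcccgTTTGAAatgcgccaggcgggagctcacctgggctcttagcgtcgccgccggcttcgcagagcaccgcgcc
KIFC1: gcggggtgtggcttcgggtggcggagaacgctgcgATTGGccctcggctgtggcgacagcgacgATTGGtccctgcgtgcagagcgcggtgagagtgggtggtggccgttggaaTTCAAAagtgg
KIF11: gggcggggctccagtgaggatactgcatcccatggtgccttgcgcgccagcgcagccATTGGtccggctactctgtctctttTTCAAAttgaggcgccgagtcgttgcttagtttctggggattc
KIF4A: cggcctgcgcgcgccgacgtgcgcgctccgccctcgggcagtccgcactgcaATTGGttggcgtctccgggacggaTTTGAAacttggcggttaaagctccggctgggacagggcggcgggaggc
KIF20A: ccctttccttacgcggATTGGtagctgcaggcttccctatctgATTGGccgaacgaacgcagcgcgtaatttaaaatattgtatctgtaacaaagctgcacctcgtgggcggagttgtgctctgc
KIF24: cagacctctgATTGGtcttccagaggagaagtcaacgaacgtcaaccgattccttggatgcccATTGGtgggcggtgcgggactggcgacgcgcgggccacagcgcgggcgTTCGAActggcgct
KIF3C: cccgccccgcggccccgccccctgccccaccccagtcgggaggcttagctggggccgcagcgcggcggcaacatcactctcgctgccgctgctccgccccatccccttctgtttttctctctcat

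In KIF11, KIF4A, KIF23, KIFC1 and KIF18B a CCAAT box on one strand or the other precedes the CHR-like letters. Counted from the start as 0, the CHR-like match begins at -55 in KIF23, -35 in KIF15, -34 in KIF4A, -28 in KIF11, 2 in KIF18B and 4 in KIFC1. In KIF24 it begins at 1, after CCAAT boxes at -154, -100 and -47. The KIF3C stretch has neither motif. In KIF5B, whose transcript did not pass the test, the CHR-like letters begin at -140 and come before the CCAAT box at -59.

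**Figure D3:**
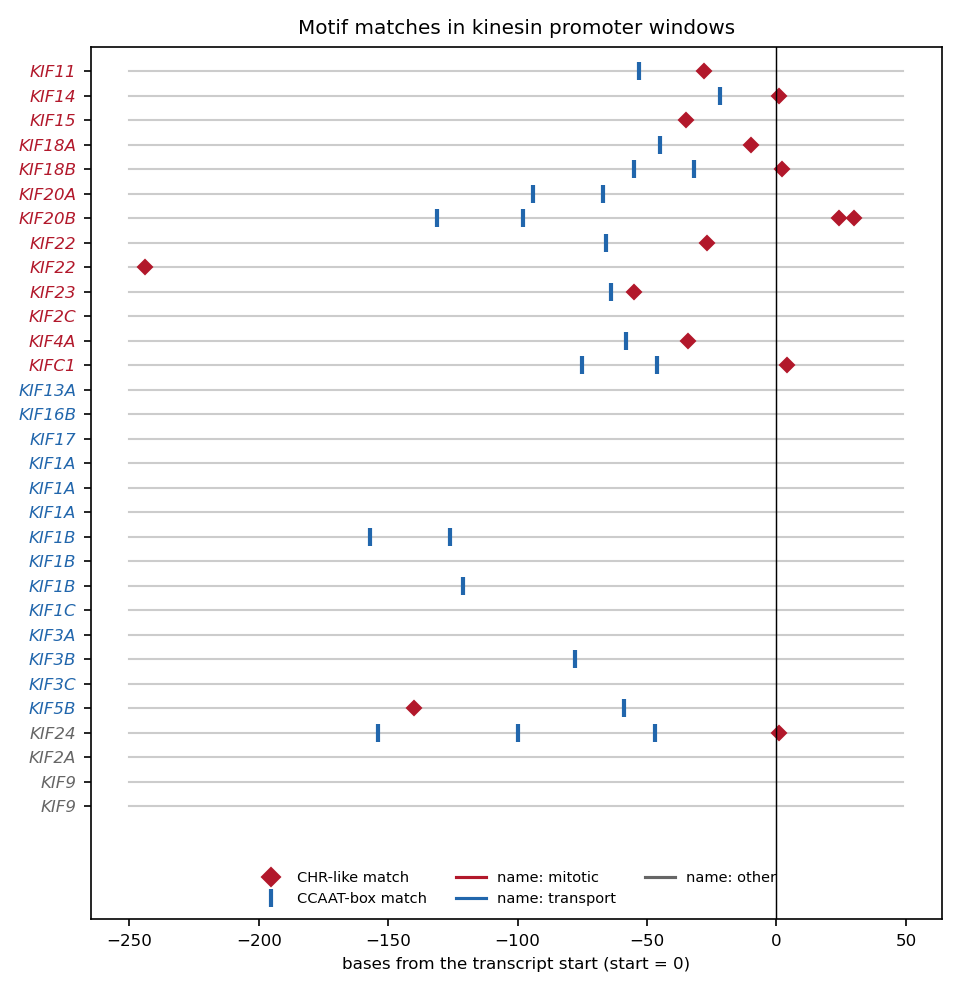
Position of CHR-like (diamonds) and CCAAT (bars) matches, in bases from the transcript start, in the RefSeq windows of the tested kinesins with names colored by role. A gene with several listed starts has a line for each, and the 3 transport genes with any match are KIF1B, KIF3B and KIF5B.

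For the most abundant transport motor no change was detected. KIF5B, the kinesin-1 heavy chain found in nearly all cells, had 234, 271 and 285 CPM in controls and 269, 252 and 248 CPM with FKA, groups that overlapped (log2 fold change -0.04, 95% interval -0.26 to 0.19, edgeR adjusted p = 0.765). KIF16B, an early endosome motor (-0.08, interval -0.32 to 0.16), and KIF1C, a vesicle motor (-0.01, interval -0.29 to 0.26), did not pass either, and the sign of all 3 depends on the scaling: by library totals they stood at 0.12, 0.08 and 0.14. KIF1B, which carries mitochondria and synaptic vesicle precursors, had 11.8, 21.9 and 16.5 CPM in controls and 17.7, 23.5 and 22.0 CPM with FKA (0.33, edgeR adjusted p = 0.216), and it passed once batch was a model term (0.36, edgeR adjusted p = 0.0461) or control replicate 2 was left out (0.57, edgeR adjusted p = 0.0410). KIFC3, a minus-end motor, stood at -0.29 (edgeR adjusted p = 0.185), with 55.0, 82.8 and 71.5 CPM against 45.1, 66.4 and 59.9 CPM. Its batch differences of -0.28, -0.32 and -0.25 were nearly equal, and it passed once batch was a model term (edgeR adjusted p = 0.0168) or control replicate 1 was left out (-0.44, edgeR adjusted p = 0.0383).

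The kinesin-2 subunits rose, apart from KIF17. KIF3A and KIF3B form the heterotrimeric motor that builds cilia and carries vesicles, and KIF3C can pair with KIF3A in its place. KIF3C had 3.35, 3.27 and 2.71 CPM in controls and 11.4, 14.6 and 11.2 CPM with FKA, a log2 fold change of 2.00 (SE 0.183, edgeR adjusted p = 3.79e-05). KIF3B rose from 22.7, 22.7 and 21.5 CPM to 39.7, 35.4 and 36.8 CPM (0.74, SE 0.0991, edgeR adjusted p = 0.000262). In both genes the libraries of a group lay close together and the groups were far apart. KIF3A had 8.53, 6.17 and 3.66 CPM against 9.75, 10.3 and 11.9 CPM (0.80, SE 0.274, edgeR adjusted p = 0.0305). The groups of KIF3A were only just apart, its batch differences were 0.19, 0.74 and 1.70, and the call was lost without control replicate 2 or 3 or any single FKA library (edgeR adjusted p between 0.0510 and 0.0862). The motor of dendrites and cilia KIF17 fell from a low level, 1.51, 1.62 and 2.26 CPM to 1.03, 0.844 and 0.633 CPM (-1.11, SE 0.315, edgeR adjusted p = 0.0139). Leaving out control replicate 3 (edgeR adjusted p = 0.0585) or FKA replicate 3 (0.0541) removed that call.

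Other transport motors went both ways. KIFC2, a minus-end motor first described in neurons, rose from 24.5, 22.4 and 18.9 CPM to 67.1, 81.6 and 79.7 CPM (log2 difference 1.80, SE 0.127, edgeR adjusted p = 1.07e-05). KIF13B, a kinesin-3 motor that binds the scaffold DLG1, rose from 13.1, 18.0 and 15.4 CPM to 30.9, 36.8 and 26.0 CPM (1.01, SE 0.165, edgeR adjusted p = 0.000794). In these 2 genes every FKA library was above every control, as in 6 of the 14 tested transport members and in 33.7% of all tested genes. KIF21B, a kinesin-4 motor of neurons and lymphoid cells that restrains microtubule growth, fell from 191, 247 and 220 CPM to 50.5, 33.2 and 36.5 CPM (-2.45, SE 0.168, edgeR adjusted p = 9.70e-06). It was the transport member with the largest fall, with batch differences of -1.92, -2.89 and -2.59.

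2 kinesin-3 members of low level had uneven libraries. KIF13A, a recycling endosome motor, had 5, 9 and 6 counts in controls and 16, 44 and 31 with FKA, so it passed the count filter through the FKA group. Its log2 fold change of 2.19 (SE 0.487) is therefore given as a description, and without FKA replicates 2 and 3 it stood at 1.30. Those libraries hold the mesenchymal transcripts given above, and the part of those transcripts in the KIF13A value was not tested. KIF1A, the axonal carrier of synaptic vesicle precursors, had 2, 4 and 33 counts in controls and 36, 18 and 22 with FKA. It too passed the count filter only through the FKA group, and it was not called (0.99, SE 0.796, edgeR adjusted p = 0.310). Without control replicate 3, the only control with more than a few counts, it stood at 3.05, which is given as a description.

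**Figure D4:**
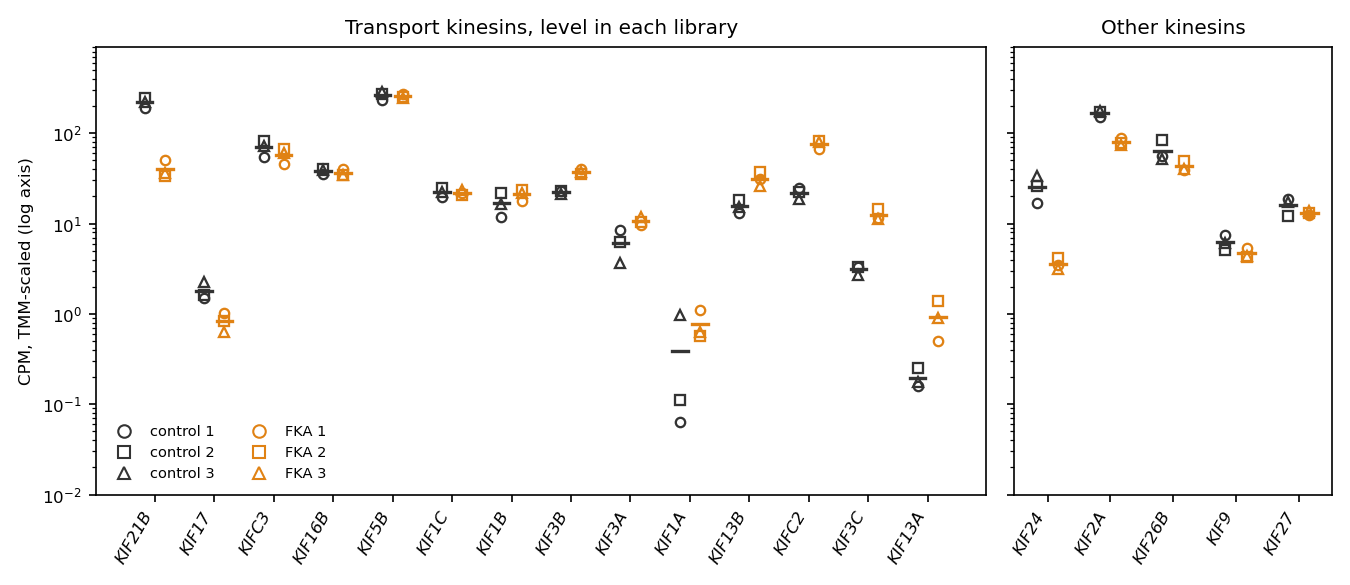
Level of the 14 tested transport and 5 tested other kinesins in each library, in TMM-scaled CPM on a log axis, with controls in black, FKA in orange and bars for the group means. KIF5B, KIF16B and KIF1C overlap between groups, whereas KIFC2, KIF3C and KIF13B lie higher with FKA and KIF21B, KIF24 and KIF2A lower.

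Among the other kinesins the relatives of KIF2C fell. KIF24, which trims microtubules at the centriole and restrains cilia, went from 16.8, 26.3 and 34.0 CPM to 3.51, 4.16 and 3.14 CPM (log2 difference -2.84, SE 0.261, edgeR adjusted p = 3.83e-05). KIF2A, a microtubule depolymerase of spindle poles and of neurons, went from 150, 173 and 177 CPM to 88.5, 77.9 and 74.9 CPM (-1.05, SE 0.103, edgeR adjusted p = 5.24e-05). The groups of both genes were apart, and in the kinesin-13 family the values ran from -4.73 for KIF2C to -1.05 for KIF2A. KIF26B, an unusual kinesin of cell adhesion and polarity, fell slightly, from 55.3, 84.3 and 51.4 CPM to 39.6, 48.9 and 40.2 CPM (-0.57, edgeR adjusted p = 0.0245), and lost that call by library totals (-0.42, edgeR adjusted p = 0.101), without control replicate 2 (0.0631) and without FKA replicate 1 (0.0794) or 3 (0.0747). KIF9 (-0.41, edgeR adjusted p = 0.109), a motor of motile cilia, and KIF27 (-0.29, edgeR adjusted p = 0.173), a relative of the Hedgehog regulator KIF7, did not pass, though KIF27 did without control replicate 2 (-0.46, edgeR adjusted p = 0.0280). Strand use is not stated, so reads of KIF15 and TMEM42, KIF20A and CDC23, KIF2A and DIMT1, KIFC2 and FOXH1 or TMEM276, or KIF24 and NUDT2 or UBAP1, which overlap in RefSeq, cannot be told apart.

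6 members did not pass the filter and have no test. KIF4B, an intronless copy of KIF4A whose reads may have been shared with it, had 2, 5 and 15 counts in controls and 0, 3 and 1 with FKA. KIF5A and KIF5C, the neuronal kinesin-1 heavy chains, had at most 5 and 10 counts in a library, and KIF21A at most 8. KIF12 was at 0 in all libraries but FKA replicate 2, with 1 count. KIF26A was at 0 in all controls and in FKA replicate 1, and had 4 and 2 counts in FKA replicates 2 and 3.

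Per unit length, the order of the motors changed in part, with KIF5B at rank 1 and KIF20B at rank 3 by group mean in both groups. FPKM values (counts divided by gene length and by the library total, with no further scaling) allow levels of different genes to be compared. In controls KIF5B was highest at 41.1 ± 4.85 FPKM (SD, n = 3), followed by KIF11 (30.2 ± 16.7), KIF20B (27.4 ± 2.93), KIF22 (23.2 ± 6.25), KIF2C (21.9 ± 10.2), KIF21B (20.6 ± 3.31) and KIF2A (19.4 ± 2.15). From KIF11 down to KIF2A, neighbors in the order differed by less than the SD of at least 1 of them. With FKA the order was KIF5B (44.6 ± 2.03), KIFC2 (20.2 ± 2.16), KIF20B (11.0 ± 0.676), KIF2A (10.4 ± 0.932), KIFC3 (7.50 ± 1.47) and KIF3B (6.44 ± 0.347). KIF20B and KIF2A lay within their spread of each other, and so did KIFC3 and KIF3B. By group mean KIF11 moved from rank 2 to rank 12 of 37, KIF2C from 5 to 20, KIF15 from 11 to 27, and KIFC2 from 16 to 2. In control replicate 1 alone KIF11 (11.2 FPKM) ranked 6, KIF2C 7 and KIFC2 10.

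Summed over members, mitotic kinesins held 91.5, 212 and 218 FPKM in control replicates 1 to 3 and 23.6, 25.7 and 22.4 FPKM in FKA replicates 1 to 3. The transport sum was 78.7, 100.5 and 91.5 FPKM in controls and 99.7, 103 and 97.8 FPKM with FKA. As shares of all kinesin FPKM, the mitotic members made up 46.7%, 61.5% and 64.2% in controls and 16.8%, 17.7% and 16.5% with FKA. The transport share was 40.2%, 29.2% and 27.0% in controls and 70.7%, 70.6% and 72.0% with FKA, and KIF5B alone held 12.7% to 18.1% in controls and 30.5% to 33.2% with FKA. The FKA libraries were nearly equal in these shares, while control replicate 1 lay between the other controls and the FKA libraries.

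**Figure D5:**
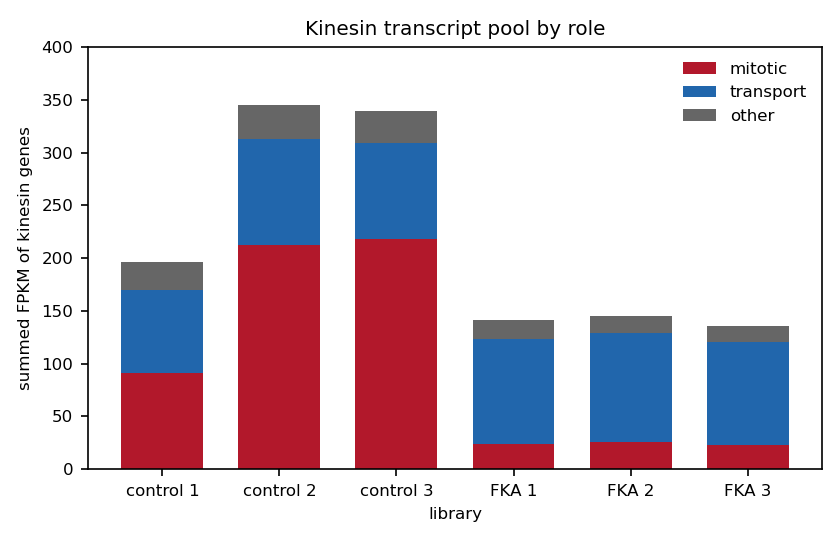
Summed FPKM of the 37 kinesin genes in each library, stacked by role (mitotic at the bottom, transport in the middle, other on top). The mitotic part is 91.5 to 218 FPKM in controls and 22.4 to 25.7 FPKM with FKA, while the transport part stays between 78.7 and 103 FPKM.

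The spindle partners of kinesins fell with them. All 9 listed genes were called lower, against 30.5% of all tested genes, with a median log2 fold change of -2.77. They included HMMR, which binds spindle microtubules and TPX2 (-4.60), citron kinase (CIT, -3.96), TPX2, which loads KIF11 and KIF15 on the spindle (-3.43), and CENPE, a kinetochore kinesin without a KIF symbol (-3.26). PRC1, the bundler bound by KIF4A, stood at -2.77 and RACGAP1, the partner of KIF23, at -2.63. NUMA1, which anchors dynein at the poles and also serves the interphase nucleus, changed least (140 ± 31.8 to 96.4 ± 3.04 CPM, n = 3, log2 fold change -0.54, edgeR adjusted p = 0.0129), and by library totals it was not called (-0.39, edgeR adjusted p = 0.0616). The list was chosen with results of these libraries known and is no separate evidence of a direction.

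Of the light chains and cargo adaptors more rose than fell. Of 15 tested genes in the list, 9 rose, 2 fell and 4 did not pass, against 29.3% higher and 30.5% lower over all tested genes, with a median of 0.62. One that rose, STARD9 (0.68), is itself a kinesin motor and not an adaptor. It has no KIF symbol, so it is not a member and was given no role, mitotic or transport. Without STARD9, 8 of 14 rose and the median was 0.50. The kinesin-1 light chains KLC1 (133 ± 13.5 to 233 ± 10.1 CPM, log2 fold change 0.81, edgeR adjusted p = 0.000163), KLC4 (0.94) and KLC2 (1.09) rose, while KIF5B itself was not called. The JNK-binding adaptor MAPK8IP3 (1.12) rose too, as did PLEKHM1 (1.28), which binds late endosomes and lysosomes. MAPK8IP1, also JNK-binding, had 21, 10 and 17 counts in controls and 53, 33 and 41 with FKA. Its controls alone would not pass the count filter, so the value (1.40, from 0.487 to 1.29 CPM) is given as a description. MAPK8IP1 is counted among the 9 that rose and stays in the medians above. FYCO1, which links late endosomes and autophagosomes to kinesin-1, was among those that fell (-0.39). KIFAP3, the adaptor of the KIF3A and KIF3B motor, stood at 0.27 (edgeR adjusted p = 0.112) and KIFBP at 0.34 (edgeR adjusted p = 0.0563). By library totals no adaptor was called lower.

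Dynein, the motor of the opposite direction, and its cofactor dynactin had mostly small fold changes. Of 19 tested subunits 9 rose, 3 fell and 7 did not pass (median 0.31), against 29.3% higher and 30.5% lower over all tested genes. The share called in either direction was near the 59.8% of all tested genes. Every FKA library lay above every control for 13 of the 19 and below for 4, against 33.7% and 33.6% of all tested genes. DYNLT3 (0.93, not called) had 8, 11 and 7 counts in controls and 18, 13 and 18 with FKA. Its controls alone would not pass the count filter, and it stays in these counts and medians. The light intermediate chain DYNC1LI2 rose from 131 ± 11.3 to 248 ± 25.7 CPM (n = 3, log2 fold change 0.92, edgeR adjusted p = 0.000134), and the dynactin subunits DCTN3 (0.87) and DCTN1 (0.61) and the light chain DYNLL2 (0.76) rose as well. The intermediate chain DYNC1I1 fell (-1.26, edgeR adjusted p = 0.00202), with ACTR1B (-0.47) and DCTN6 (-0.29). The heavy chain DYNC1H1, without which there is no motor, stood at 0.15 (edgeR adjusted p = 0.165), and the most abundant subunit per length, the light chain DYNLL1 (123 FPKM in controls), at 0.12 (edgeR adjusted p = 0.462). Library totals as the only scaling raise the median of all genes by 0.16 on the log2 scale, and the dynein list stood at 0.47 there.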

How the data were processed

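Raw gene counts and FPKM of the same 21857 genes, as deposited by the authors, were used for the 6 libraries. The deposited FPKM equals the count divided by the column total and 1 length per gene (largest relative deviation 8.45e-07), so both hold the same measurements. Mouse builds (GRCm38, mm10) are named in the submitters' processing notes, while 94.5% of the symbols and all 37 kinesin symbols matched the human RefSeq table. Aligner, counter, annotation and strand setting: not given in the sources used here. Coordinates come from RefSeq only.

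Counts were fitted in R 4.3.3 with edgeR 4.0.16 (filterByExpr, which kept 13531 genes, TMM, quasi-likelihood test of FKA against control, Benjamini-Hochberg adjustment, threshold 0.05). Standard errors and 95% intervals derive from that test. CPM are TMM-scaled. No pair of replicates was a repeat of 1 library (a chi-square test gave 23.1 to 70.6 per degree of freedom). The code was tested on simulated counts.

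By the labels the replicate number is the batch, which pairs each control with 1 FKA library. Deviations from the group means correlated by 0.05, 0.34 and -0.08 within batches 1 to 3. The batch was left out of the main model and added as a block in an alternative. Other alternatives were DESeq2 1.42.0, RLE, upper-quartile and no scaling, no filter, at least 1 CPM in 3 libraries, limma 3.58.1 on log2(FPKM + 1), log2(FPKM + 0.1) or with a mean FPKM of at least 1, leaving out libraries, and other role assignments.

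The members, roles and lists were chosen with earlier results of these data known. Every tested member is named. From each partner list the text takes at most 4 called members, chosen by size of change, those against the list's direction and the most abundant, and further partners of named motors after their values were seen. 1 adaptor that the rule names is not reported here. No p is given for a list.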

Additional observations from a re-analysis of the deposited data

How the results depend on the processing

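All 12 mitotic kinesins were called lower under every alternative that tested the same members, apart from limma on log2(FPKM + 1) of the kept genes and the fit without FKA replicates 2 and 3, where KIF18A missed the threshold (adjusted p = 0.0540 and 0.0671). Of the 23 called kinesins, 18 to 23 kept their call and direction over the alternatives. With the replicate block, KIF1B (log2 fold change 0.36) and KIFC3 (-0.29) passed as well, and the block changed no other kinesin call. Of the partners, KIFBP and DYNC1I2 passed with the block (adjusted p = 0.0374 and 0.0369). Without control replicate 1, 2 or 3 or FKA replicate 1, 2 or 3, the mitotic median ran from -4.57 to -3.88, the transport median from 0.31 to 0.55, transport members called lower from 1 to 3, adaptors called lower from 1 to 2.

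Scaling moved small values. The median of all genes was 0.080 with upper-quartile factors, 0.17 with library totals and 0.035 with no filter. The dynein median was 0.38 and 0.47 with the first 2 of these, the adaptor median 0.78 with library totals, and adaptors called lower numbered 1 and 0. With library totals the transport median was 0.69. With no filter the kinesin median was -0.45 and the transport median 0.33, and with at least 1 CPM in 3 libraries the transport median was 0.18. That last filter kept 12 transport members and removed KIF13A and KIF1A, which had passed the main filter only through the FKA group.

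The log2(FPKM + 1) scale compresses low genes by construction. There the medians were 0.095 for all genes, -0.31 for kinesins, -2.59 for mitotic, 0.12 for transport and -0.31 for other members, 0.47 for adaptors and 0.38 for dynein, with a mitotic minus transport difference of -2.71 and 0 adaptors called lower. With a mean FPKM of at least 1 they were 0.12 (all genes), -2.59 (mitotic), 0.26 (transport), -0.31 (other), 0.50 (adaptors) and 0.42 (dynein), the difference was -2.85, 1 transport member was called lower and 0 adaptors were. On log2(FPKM + 0.1) they were 0.16 (all genes), -0.71 (kinesins), -0.37 (other), 0.78 (adaptors) and 0.47 (dynein), again with 0 adaptors lower.

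Without FKA replicates 2 and 3 together, 2020 genes were called higher and 2599 lower, the median of all genes was -0.012 and the transport median 0.66. There 1 transport member and 0 adaptors were called lower, and 4 dynein subunits were higher and 1 lower. Fewer libraries entered that model. With KIF2A and KIF24 counted as mitotic, 1 other kinesin was called lower and the other median was -0.41. With KIF21A, KIF21B, KIFC2 and KIFC3 counted as other, 1 transport member was lower, the transport median was 0.74, and 1 other kinesin was higher. In settings chosen after seeing the data, the transport median was 0.33 without KIF13A and the adaptor median 0.50 without STARD9. NUMA1 missed the threshold with library totals, on the FPKM scales and without FKA replicates 2 and 3 (adjusted p 0.0616 to 0.116).

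Among single members, signs turned only for KIF16B, KIF5B and KIF1C, none of them called. KIF16B stood at 0.078 with library totals, 0.077 on log2(FPKM + 0.1), 0.065 on log2(FPKM + 1) with either filter and 0.053 without FKA replicates 2 and 3. KIF5B stood at 0.032 with upper-quartile factors, 0.12 with library totals and on log2(FPKM + 1) with either filter, 0.13 on log2(FPKM + 0.1) and 0.024 without FKA replicates 2 and 3. Leaving out 1 replicate gave KIF5B values from -0.12 to 0.015. KIF1C stood at 0.055 with upper-quartile factors, 0.14 with library totals and on log2(FPKM + 0.1), 0.0093 with at least 1 CPM in 3 libraries and 0.11 on log2(FPKM + 1) with either filter, and leaving out 1 replicate gave -0.10 to 0.061. The cause of these shifts was not tested beyond what the settings themselves change.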

Other observations

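4 antisense rows next to kinesin genes were listed and belong to no comparison above. KIF9-AS1 had 26, 78 and 29 counts in controls and 52, 148 and 79 with FKA. KIF23-AS1 had 1, 1 and 2 counts in controls and 7, 5 and 3 with FKA, while KIF23 itself fell. KIF1C-AS1 and KIF5C-AS1 had at most 6 and 3 counts in a library. Strand use is not stated, so reads of a kinesin and of its antisense row cannot be told apart.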
